A study of Mus musculus with 26 samples.

Results

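The semaphorins, plexins and neuropilins, a family of axon guidance ligands and their receptors, were described in motor neuron spheroids of 5 treatment groups. Members were taken from the protein-coding rows of the deposited gene table by symbol (Sema3 to Sema7 with a letter a to g, Plxna to Plxnd with a digit, Nrp1 and Nrp2). The rule itself used no measured value, but the family was chosen with earlier results of these data known. The rule found 31 of the 56941 genes in the table, namely 20 semaphorins (7 of class 3, 6 of class 4, 2 of class 5, 4 of class 6 and 1 of class 7), 9 plexins (4 of class A, 3 of class B, 1 of class C and 1 of class D) and both neuropilins. All spheroids came from 1 cell line, the mouse embryonic stem cells HBG3, in which the promoter of the motor neuron gene HB9 (Mnx1) drives GFP, and were used from about day 8 of differentiation. The labels give the genotype of all samples as heterozygous blastocysts, and all spheroids sat on a fibrin platform. One arm placed spheroids over a magnetic silicone array that was moved daily for 30 min at 4 Hz (actuated array, n = 4) or was left still throughout (static array, n = 4). In the other arm, biochemical stimulation was labelled as either high intensity (n = 6) or low intensity (n = 6), beside a biochemical control (n = 6, called control here). The series' design text speaks of medium from optically stimulated muscle (30 min at 1 Hz) and from unstimulated muscle, but its sample names occur nowhere in the labels, so both groups go by their intensity here. Nothing in the labels says that replicates came from separate cultures, so p-values measure the spread between these samples, which may be technical.

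Semaphorins are guidance proteins that steer growing axons, mostly by repulsion. Class 3 members are secreted and bind neuropilins, which lack a signalling domain of their own and pass the signal on through class A plexins. Class 4, 5 and 6 members span the membrane and bind plexins directly, class 7 is anchored to the membrane by a lipid, and plexins act on small GTPases and thereby on the actin of the growth cone. In the spinal cord, Sema3a with Nrp1 and Sema3f with Nrp2 are known to sort motor axons on their way into the limb.

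Libraries were compared where they held over 1000000 counts on protein-coding genes. This left 5 control, 4 high intensity, 5 low intensity, 3 static and 4 actuated libraries, with totals of 1551334 to 3971348 counts over all genes in the biochemical arm and 7269276 to 13162635 on the arrays. Control replicate 4, high intensity replicates 4 and 5, low intensity replicate 6 and static replicate 3 were below that minimum. Depth and arm cannot be told apart, so comparisons across arms carry both. Members held between 3335 and 28025 counts per library, or 0.209 to 0.282% of protein-coding counts. Neuron markers (Tubb3, Map2, Rbfox3, Snap25, Nefl, Stmn2) summed to at least 5032 CPM (counts scaled to a common library size by TMM) in each of these libraries. The motor neuron markers Mnx1, Isl1, Isl2, Lhx3, Chat, Slc18a3 and Slc5a7 summed to 70.6 to 162 CPM, with Isl2 too low to be fitted. In bulk RNA, fewer cells of a type and less RNA per cell cannot be told apart.

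Most of the family was expressed in the spheroids, and the plexin Plxna1 and the membrane-bound ligand Sema6a stood highest. By mean TPM (transcripts scaled by length and library) over the 21 libraries, Plxna1 led with 88.1, above 95.1% of protein-coding genes. Sema6a followed with 53.7, Nrp2 with 38.8, Plxnb2 with 37.9, Sema3a with 32.1 and Sema6d with 27.1 TPM. Nrp1 (17.8), Plxna2 (16.9), Sema3c (16.1), Sema4g (13.04), Plxna4 (12.9) and Sema5a (12.7) came next. Of the 31 members, 29 had a mean of 1 TPM or more, 17 of 10 or more, and 27 had counts in all 21 libraries. The lowest levels were those of Sema3f (3.84), Sema3b (3.32), Sema3d (1.64), Plxnb3 (0.785) and Sema3g (0.200 TPM). Sema3g did not pass the count filter (filterByExpr) and was not tested. Single libraries of a group spread widely in TPM, with Plxna1 at 36.4 to 65.1 in controls and 77.8 to 154 in low intensity. Between neighbours in this order no test was made. In TPM, the range of Plxna1 lay wholly above that of Sema6a in the low intensity and static groups and overlapped it in the other 3 groups.

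**Figure D1:**
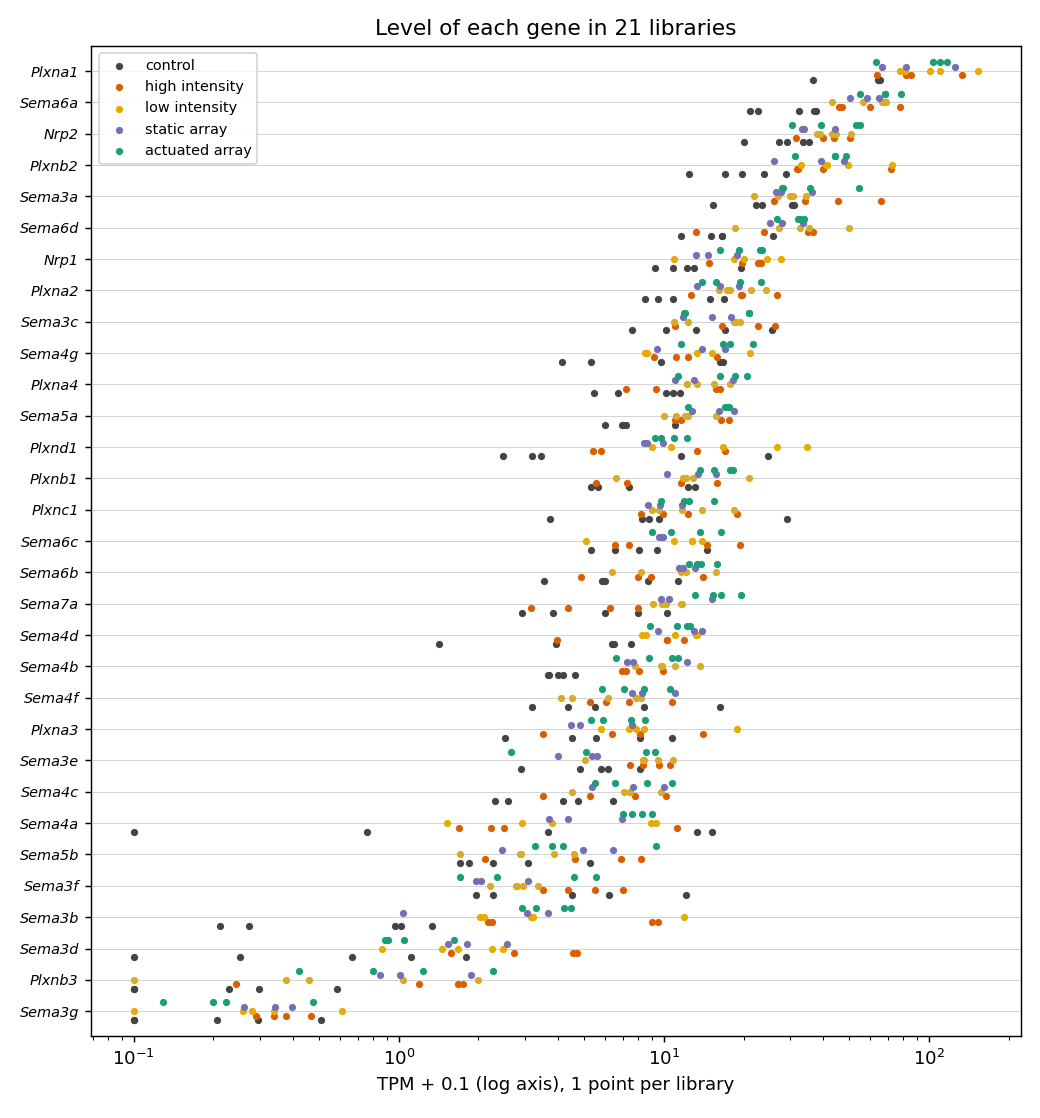
TPM + 0.1 of each of the 31 genes (log axis) in each of the 21 libraries compared, 1 point per library coloured by group, with genes ordered by mean TPM. Plxna1 lies highest and Sema3g lowest, and control points tend to lie to the left, where non-coding genes take a median of 62.9% of all TPM.

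TPM was lower in controls for most genes, not for this family alone. Genes that do not code for proteins took a median of 62.9% of TPM in controls (55.5 to 75.9%), against medians of 39.8 to 47.6% in the other 4 groups. On log2(TPM + 1) the median of all 14730 genes fitted was 0.53 higher in high intensity, 0.64 in low intensity and 0.50 on the static array than in controls. Group differences given here are from counts scaled by TMM, where these medians lay within 0.02 of 0.

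No member differed between the moved and the still array beyond the spread between libraries. With edgeR's quasi-likelihood test, none of the 30 members tested passed an adjusted p of 0.05 between actuated and static array, and none had an unadjusted p under 0.05. Over all 14730 genes the test called 0% (0 genes) and 0.38% (56 genes) had an unadjusted p under 0.05. That share is below what this limit gives by chance where nothing differs, so the test was strict here. DESeq2's Wald test and limma voom called no member either. Log2 differences ran from -0.52 (Sema3d) to 0.84 (Sema3b). Of the 30, 28 lay within 0.5 of 0, as did 13345 of all 14730 genes, and 21 of 30 were above 0, against 49.8% of all genes. The median member difference was 0.10, against -0.0004 for all genes. For the abundant receptors the intervals were narrow: Plxna1 differed by 0.07 (95% interval -0.14 to 0.27), Nrp2 by 0.11 (-0.11 to 0.34), Plxnb2 by 0.09 (-0.22 to 0.40) and Plxna2 by 0.03 (-0.27 to 0.34).

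3 members had actuated libraries that all lay above the static ones, in a comparison where 2.1% of all genes did so, and none lay wholly below (2.23% of all genes). Nrp1, the neuropilin that binds Sema3a, stood at 51.1, 46.4 and 46.6 CPM on the static array and at 56.6, 59.2, 56.1 and 58.4 CPM on the actuated array. The gap between its groups was wider than the range within either, and the log2 difference was 0.26 ± 0.20 (SE, adjusted p = 1 with edgeR's quasi-likelihood test). That SE draws on the spread of all 5 groups, where the SD of Nrp1 was 2.66 CPM (static), 1.48 CPM (actuated) and up to 16.2 CPM (low intensity). Sema7a, the lipid-anchored semaphorin that signals through integrin beta 1 and Plxnc1, stood at 28.7, 27.9 and 21.8 CPM when static and 31.8, 29.1, 36.5 and 31.8 CPM when actuated. Sema3b stood at 3.17, 2.60 and 3.82 CPM when static and 5.35, 6.48, 4.52 and 6.59 CPM when actuated. None of the 3 passed the test, with log2 differences of 0.30 ± 0.33 for Sema7a and 0.84 ± 0.52 for Sema3b. Motor neuron markers summed to 73.7 to 89.1 CPM on the static and 95.7 to 131 CPM on the actuated array. All 6 tested were above 0 in log2 difference (median 0.50), 1 at an unadjusted p under 0.05 and none called. Of the 6 neuron markers, 4 were above 0 (median 0.04). The part of such cells in these differences was not tested.

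**Figure D2:**
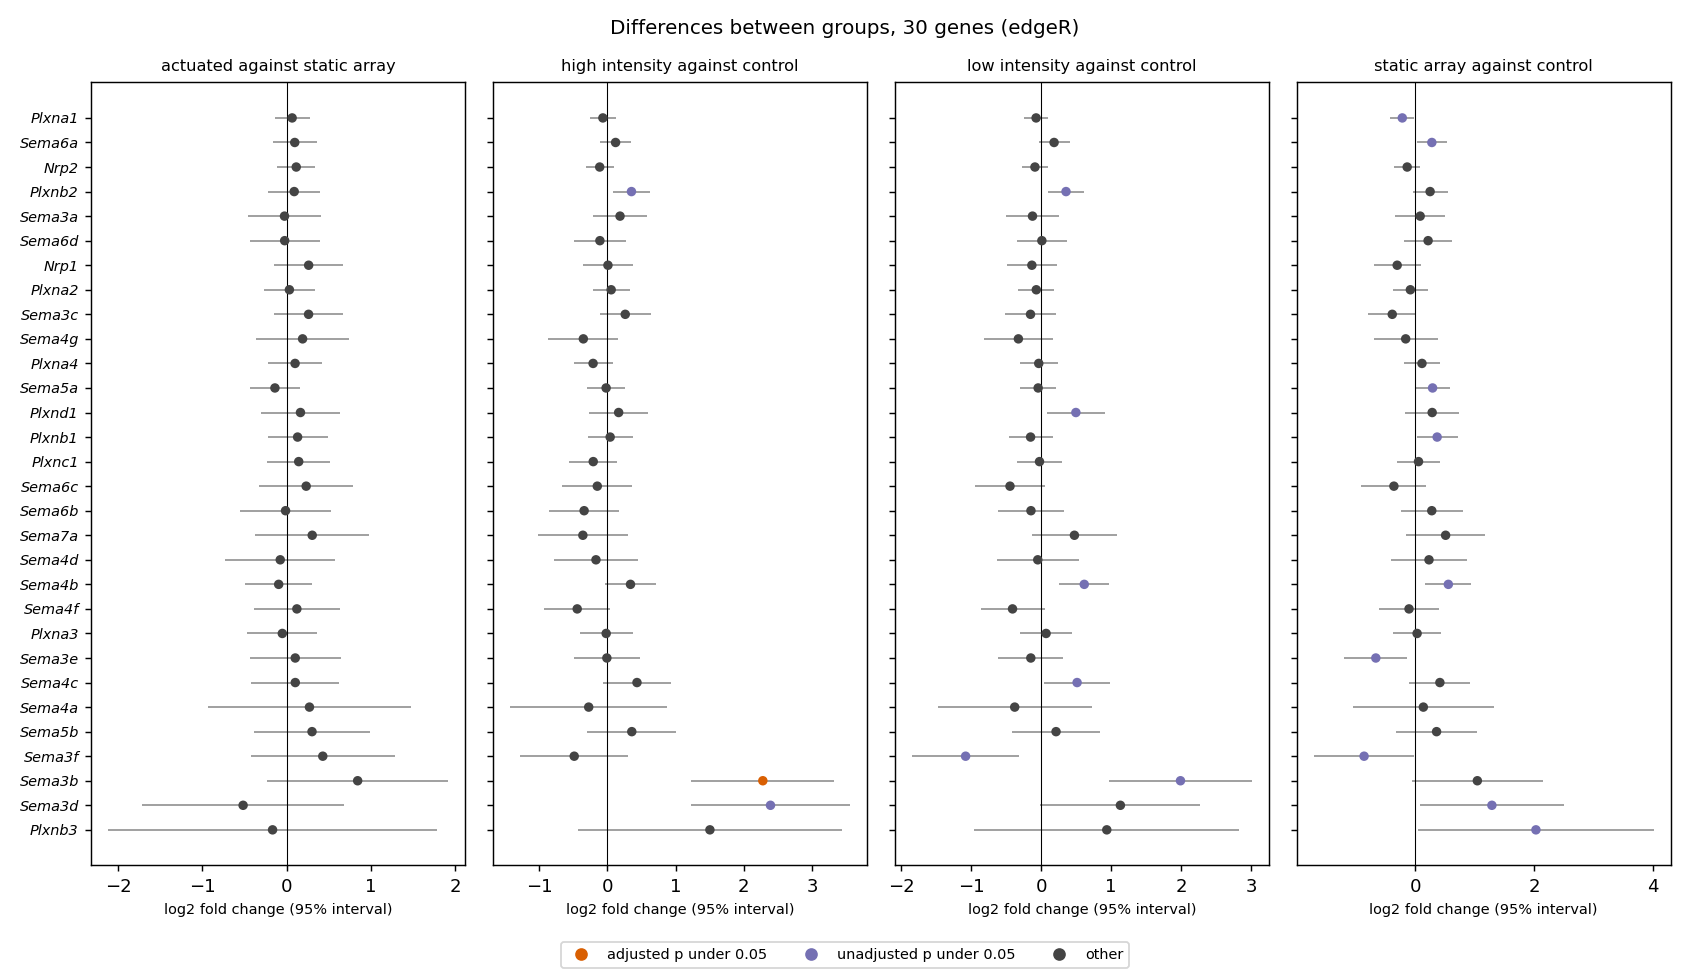
Log2 fold change with its 95% interval (horizontal axis) of the 30 genes tested in 4 comparisons, ordered by mean TPM from top to bottom, with colour marking the p from edgeR. Sema3b in high intensity against control is the only point past an adjusted p of 0.05, and intervals widen toward the low genes at the bottom.

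In the biochemical arm, 2 secreted class 3 ligands of low abundance, Sema3b and Sema3d, held the largest differences of the family. Sema3b rose in high intensity against control by 2.28 ± 0.51 on the log2 scale, which is 4.85-fold with a 95% interval of 2.35 to 10.04 (adjusted p = 0.0435 with edgeR's quasi-likelihood test). It was the 1 member of 30 called there, where the test called 0.462% of all genes and 0.305% as higher. Sema3d was higher by 2.39 ± 0.57 (5.25-fold, 2.34 to 11.8) and just missed the threshold at an adjusted p of 0.0538. Plxnb2 was the third member with an unadjusted p under 0.05, and all 3 were higher, beside 8.67% of all genes higher and 7.28% lower (15.9% in all). The median of the 30 members was -0.01 and 27 of the 30 lay within 0.5 of 0, beside 10808 of all 14730 genes.

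Sema3b, a secreted ligand of both neuropilins, was nearly absent from controls. Its counts there were 2, 2, 2, 6 and 10, or 0.575, 0.701, 0.769, 2.81 and 2.90 CPM (mean 1.55 ± 1.19, SD, n = 5). High intensity libraries held 4.54, 11.8, 6.54 and 7.44 CPM (7.57 ± 3.04, n = 4) and low intensity libraries 4.15, 4.12, 7.15, 6.95 and 8.50 CPM (6.18 ± 1.96, n = 5). Every library of both groups lay above every control, which 2.07% of all genes did for high and 1.28% for low intensity. Sema3d was the other member wholly above control in high intensity, and none lay wholly below there (1.49% of all genes). Against control, low intensity was higher by 1.99 ± 0.49 (3.97-fold, 1.96 to 8.05), at an adjusted p of 0.0582. High and low intensity differed by 0.29 ± 0.47 (95% interval -0.67 to 1.25).

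The call of Sema3b rested on few counts and few libraries. It was also lost with limma voom (adjusted p = 0.326), with only the groups compared (0.251), with counts thinned to the shallowest library (0.0854) and with the replicate number as a block (0.0734), and held with DESeq2's Wald test (0.00245). With all 26 libraries fitted the log2 difference from control was -0.21 in high and -0.30 in low intensity. Of the 5 libraries this adds, control replicate 4 held 21 Sema3b counts. That is 77.1 in every 1000000 protein-coding counts of this library (95% Poisson interval 47.8 to 118, counting error only), against at most 3.57 in the other controls, and 75.7% of all its counts fell on rRNA genes. With all libraries but that one, the log2 differences were 2.02 (adjusted p = 0.336) and 1.94. Leaving out 1 library of the groups compared ended the call for control replicate 1, 2, 3 or 5 and for high intensity replicate 1, 2 or 3 (adjusted p 0.0603 to 0.138, log2 difference 1.99 to 2.55), and the call stood without control replicate 6 or high intensity replicate 6. Leaving out a library of another group ended it in 7 of 12 cases, with an adjusted p of at most 0.0611.

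Sema3d, another secreted class 3 ligand, had its highest mean in high intensity. Controls held 0, 5.26, 1.15, 5.61 and 4.35 CPM (3.27 ± 2.54), where a count of 0 in replicate 1 allows up to 0.795 CPM. High intensity libraries held 22.2, 26.8, 10.6 and 8.26 CPM (17.0 ± 8.93). Low intensity held 7.75, 8.99, 6.13, 3.79 and 8.16 CPM, the static array 8.37, 7.66 and 7.64 CPM and the actuated array 3.52, 3.76, 9.49 and 5.25 CPM. High intensity replicates 1 and 2 stood far above all others, while replicates 3 and 6 lay close to the upper low intensity and actuated libraries. The difference from low intensity was 1.26 ± 0.53 (adjusted p = 0.606), and low intensity against control was 1.13 ± 0.55 (adjusted p = 0.335). The effect of actuation minus the effect of high intensity was -2.91 ± 0.81 (adjusted p = 0.631), in a comparison with 0% of genes called and 6.69% at an unadjusted p under 0.05. Sema3d was the 1 member of 30 below that unadjusted limit. For high intensity against control, DESeq2's Wald test (adjusted p = 0.00197) and edgeR without a count filter (adjusted p = 8.3e-05) called Sema3d, while limma voom did not (adjusted p = 0.294). It was also called without control replicate 1 (adjusted p = 0.0489), high intensity replicate 6 (0.0242) or low intensity replicate 3 (0.0495).

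Markers of fibroblasts and mesenchyme (Col1a1, Col1a2, Col3a1, Pdgfrb, Dcn, Lum, Postn) were also higher in high intensity. Their summed level was 348 to 895 CPM in controls and 902 to 2390 CPM in high intensity, with all 7 above 0 in log2 difference, 4 of them at an unadjusted p under 0.05 and none called. Within high intensity, the sums were 1921, 2390, 1093 and 902 CPM in replicates 1, 2, 3 and 6, the same order as Sema3d. Sema3b, at 4.54, 11.8, 6.54 and 7.44 CPM in the same replicates, did not follow that order. In low intensity replicate 2 the sum was 2567 CPM, beside 8.99 CPM of Sema3d and 4.12 CPM of Sema3b. On the arrays, where Sema3b and Sema3d were also above the controls in mean, the sums were 154 to 770 CPM (static) and 47.7 to 583 CPM (actuated). In actuated replicates 1, 2, 3 and 4 they were 473, 583, 47.7 and 316 CPM. Sema3d stood there at 3.52, 3.76, 9.49 and 5.25 CPM, the reverse order. Controls did not follow the order of high intensity either, with a sum of 511 CPM and no Sema3d count in replicate 1. No gene of the list was at 0 in a whole group. Skeletal muscle markers (Myod1, Myog, Myh3, Des, Ckm, Acta1, Ttn) summed to 8.46 to 101 CPM in controls, 9.54 to 165 CPM in low intensity and 7.89 to 108 CPM on the static array. In high intensity they summed to 22.6 to 184 CPM. All 4 that could be tested there were above 0 in log2 difference against control, 2 at an unadjusted p under 0.05. Of the 7, Myod1 and Myog were at 0 in all controls and Ckm in all high intensity libraries. All 6 neuron markers were below 0 in log2 difference there, 3 of them at an unadjusted p under 0.05. The part of any of these cells in the result was not tested.

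**Figure D3:**
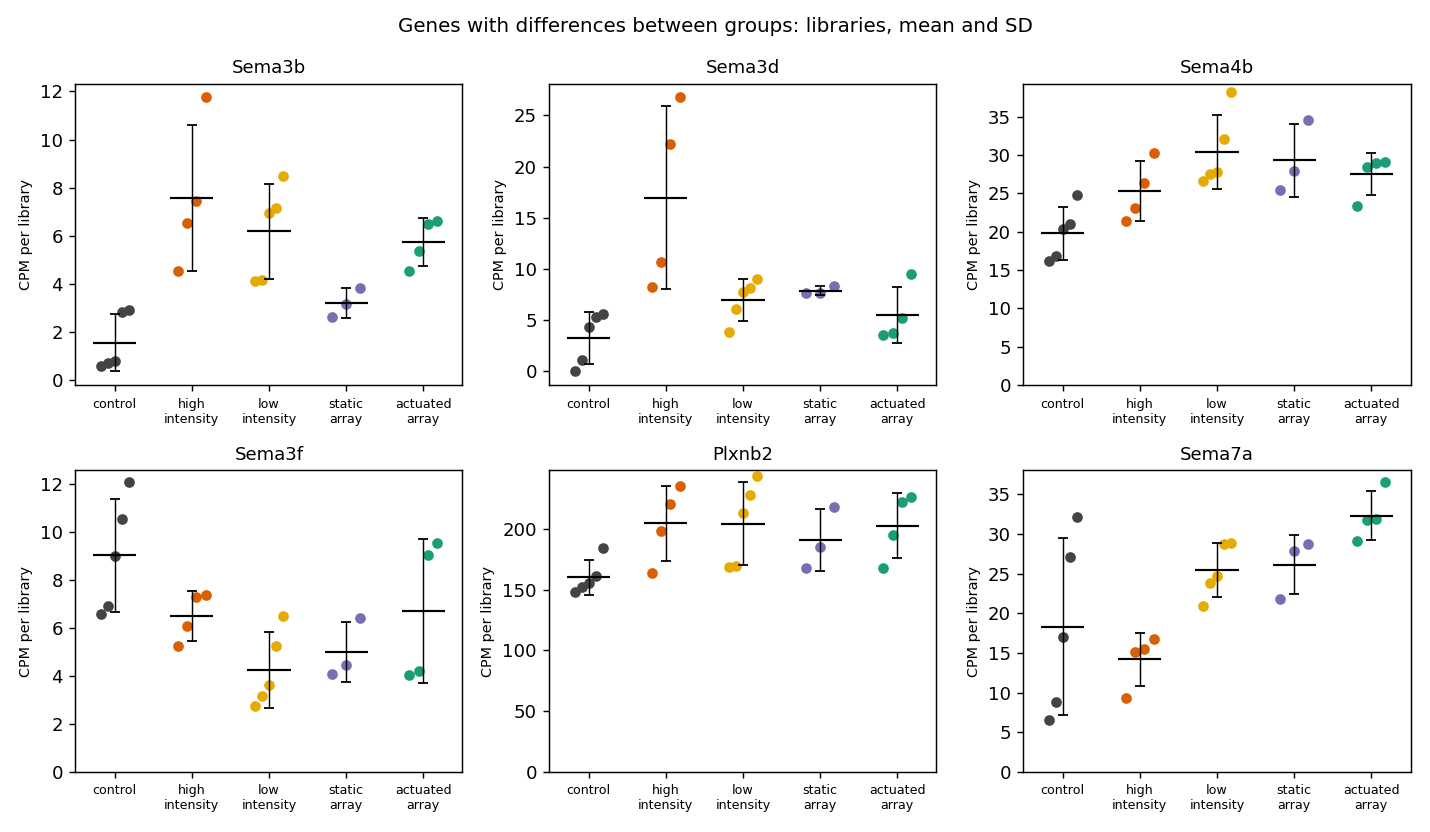
CPM of Sema3b, Sema3d, Sema4b, Sema3f, Plxnb2 and Sema7a in each library compared (points), with the mean (horizontal bar) and SD (vertical bar) of each group. The control mean is the lowest of the 5 for Sema3b, Sema3d and Sema4b and the highest for Sema3f, and 2 high intensity libraries stand at 22.2 and 26.8 CPM of Sema3d.

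**Figure D4:**
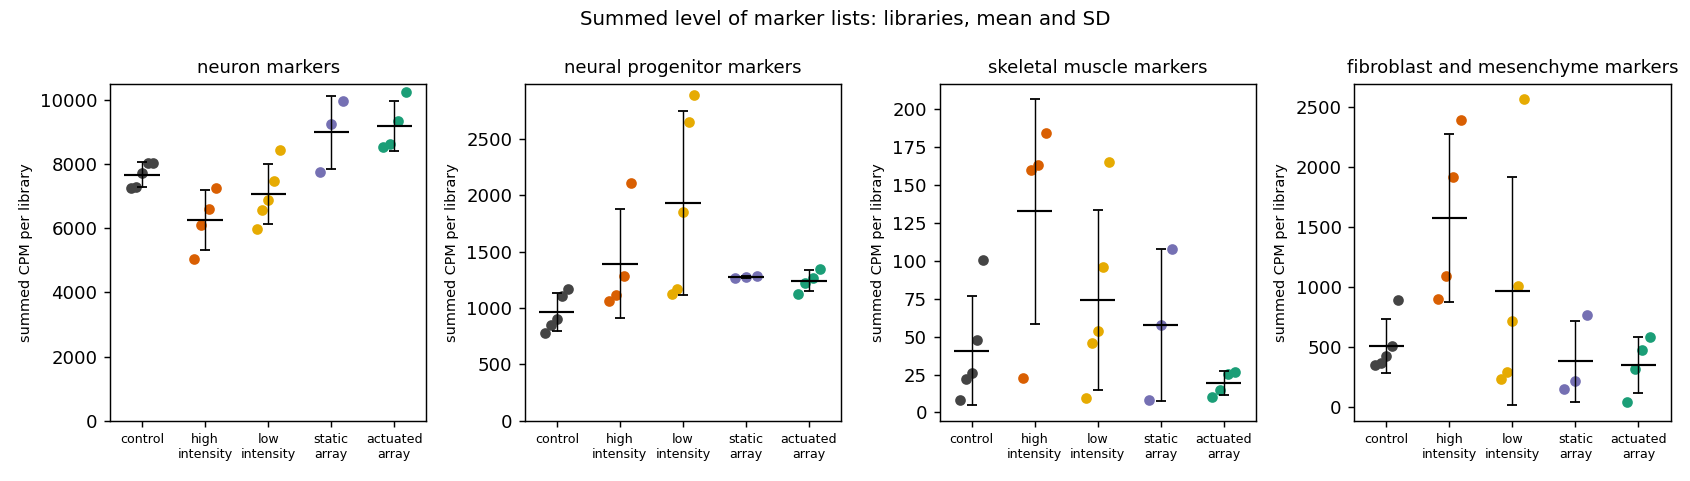
Summed CPM of 4 marker lists in each library (points), with the mean and SD of each group. Fibroblast and mesenchyme markers reach 2390 CPM in high intensity and 2567 CPM in 1 low intensity library. Skeletal muscle markers reach 184 CPM in high intensity, 165 CPM in low intensity, 108 CPM on the static array and 101 CPM in controls.

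Of the other class 3 ligands, Sema3f, Sema3a, Sema3c and Sema3e were tested, and none was called. Sema3f, the main ligand of Nrp2, stood at 12.1, 10.5, 6.92, 6.55 and 8.98 CPM in controls and at 3.60, 5.24, 6.47, 3.16 and 2.72 CPM in low intensity. All low intensity libraries lay below all controls, as 0.971% of genes did, with a log2 difference of -1.08 ± 0.37 (adjusted p = 0.150). The same gene held 6.05, 7.30, 7.36 and 5.23 CPM in high intensity, and 4.07, 4.46 and 6.41 CPM on the static array (-0.86 ± 0.41 against control, adjusted p = 0.390). Sema3b and Sema3f are near neighbours on chromosome 9, with 3 protein-coding genes between them (RefSeq, GRCm38.p6), and in low intensity against control their differences had opposite signs.

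Sema3a, the best known motor axon repellent, was the most abundant class 3 member, at 47.3 to 152 CPM in controls. No comparison moved it by more than 0.31 in log2 units, and its intervals against control were -0.21 to 0.58 (high), -0.50 to 0.25 (low) and -0.34 to 0.50 (static). Sema3c, which acts through neuropilins with Plxnd1, stood at 68.9, 118, 68.3 and 95.6 CPM in high and 52.3, 73.0, 71.2, 77.1 and 56.1 CPM in low intensity, groups that overlap (log2 difference 0.42 ± 0.18, adjusted p = 0.612). Sema3e, which binds Plxnd1 without a neuropilin, held 36.5, 79.6, 40.0, 42.6 and 39.1 CPM in controls and 29.9, 26.9 and 33.3 CPM on the static array. That difference of -0.66 ± 0.26 (adjusted p = 0.256) had no overlap of the groups. Sema3d, Sema3a, Sema3e and Sema3c all lie on chromosome 5, Sema3d next to Sema3a with no protein-coding gene between them, and only Sema3d was over 1 in log2 difference in any comparison among these 4.

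Among membrane-bound semaphorins, Sema4b, which binds the postsynaptic scaffold PSD-95, was lowest in controls. Controls held 24.7, 21.03, 16.2, 16.8 and 20.3 CPM (19.8 ± 3.47, SD, n = 5). Low intensity libraries held 32.1, 38.2, 26.6, 27.8 and 27.5 CPM (30.4 ± 4.83, n = 5) and high intensity libraries 21.4, 26.3, 30.2 and 23.1 CPM. The low intensity group lay wholly above the controls, at a log2 difference of 0.61 ± 0.17 (95% interval 0.26 to 0.97, adjusted p = 0.0795), and DESeq2's Wald test called it (adjusted p = 0.0476). On the static array it stood at 34.6, 27.97 and 25.4 CPM (0.56 ± 0.19 against control, adjusted p = 0.179). Among all alternatives, the smallest differences of Sema4b from control were 0.18 in low intensity and 0.07 on the static array. High intensity differed from control by 0.34 ± 0.18 and overlapped it. Low intensity against control called none of the 30 members (0.597% of all genes were called), and 6 had an unadjusted p under 0.05, 5 of them higher and 1 lower, where 15.2% of all genes did (8.57% higher, 6.61% lower). Those were Sema3b, Sema4b, Sema3f, Plxnb2, Plxnd1 and Sema4c. In the same comparison, neural progenitor markers (Nes, Vim, Pax6, Nkx6-1, Olig2, Sox2) summed to 781 to 1168 CPM in controls and 1121 to 2883 CPM in low intensity, none of them at 0 in either group. Of these 6, 4 were above control, and Nes (1.43, adjusted p = 0.0443) and Vim (1.01, adjusted p = 0.0352) were called. In high intensity 4 of the 6 were above control too, with sums of 1066 to 2109 CPM and none called. Other lists also moved in low intensity. All 7 fibroblast and mesenchyme markers (median log2 difference 0.74) and all 7 astrocyte and oligodendrocyte genes (0.36) were above control. Of 6 motor neuron markers tested, 1 was above control (median -0.55). The part of any of these cells in the members' differences was not tested.

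Sema4c, a ligand of Plxnb2, stood at 16.7, 11.6, 15.8, 17.8 and 11.3 CPM in controls and 27.1, 18.7, 11.6, 21.5 and 24.8 CPM in low intensity. The groups overlapped through low intensity replicate 3, and the log2 difference was 0.51 ± 0.23 (adjusted p = 0.275). Sema4g, the most abundant class 4 member, spread from 26.6 to 85.4 CPM among the controls alone, and its intervals against control ran from -0.87 to 0.16 (high) and -0.81 to 0.16 (low). Sema7a was the member with the smallest p between high and low intensity. It held 15.1, 9.32, 15.5 and 16.8 CPM in high and 28.8, 20.98, 23.8, 24.7 and 28.9 CPM in low intensity, with no overlap, as in 1.35% of all genes (log2 difference -0.83 ± 0.32, adjusted p = 0.556). Controls spanned 6.54 to 32.2 CPM and covered both groups. High against low intensity called 0% of all genes and no member with edgeR, and DESeq2 and limma voom called no member. Unadjusted p values under 0.05 were those of Sema7a (lower), Sema3d and Sema3c (higher), beside 7.68% of all genes (3.62% higher, 4.06% lower). No member lay wholly above low intensity, as 1.28% of genes did.

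No class 5 or 6 member was called in any comparison, and their log2 differences ran from -0.45 (Sema6c, low intensity against control) to 0.38 (Sema6c, effect of actuation minus that of high intensity). Sema6a, which binds Plxna2 and Plxna4 on other cells, stood at 205, 152, 196, 212 and 219 CPM in controls and 237, 231 and 249 CPM on the static array. The static libraries lay above all controls, by 0.28 ± 0.12 in log2 units (adjusted p = 0.325). Sema5a, which can attract or repel axons, held 96.0, 74.3, 83.4, 60.4 and 80.9 CPM in controls and 98.5, 86.2 and 107 CPM on the static array (0.29 ± 0.14, adjusted p = 0.392). Sema6d, a ligand of Plxna1, differed from control by at most 0.22 in any of the 3 comparisons, with control libraries at 82.3 to 176 CPM.

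Of the receptors, the B class plexin Plxnb2, which binds Sema4c and Sema4d, had higher means in both intensity groups. Controls held 152, 161, 185, 148 and 155 CPM (160 ± 14.5, SD, n = 5). High intensity held 221, 199, 235 and 164 CPM and low intensity 213, 228, 169, 169 and 244 CPM. Control replicate 3 lay within the range of both groups, and the log2 differences were 0.35 ± 0.13 (adjusted p = 0.187) and 0.35 ± 0.13 (adjusted p = 0.166). Both comparisons share the control libraries. Plxnd1, the receptor of Sema3e, held 40.5, 24.2, 27.7, 44.9 and 38.5 CPM in controls and 57.8, 53.2, 51.4, 48.7 and 36.4 CPM in low intensity (0.50 ± 0.20, adjusted p = 0.224).

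The A class plexins, the signalling partners of the neuropilins, differed little. Plxna1 held 260 to 295 CPM in controls, 265 to 272 in high, 249 to 281 in low intensity and 215 to 268 on the actuated array. On the static array it held 266, 226 and 232 CPM, -0.22 ± 0.10 in log2 units against control (adjusted p = 0.348), and on log2(TPM + 1) the sign of that difference turned to 0.60 beside a median of 0.50 for all genes. Plxna2 and Plxna4 differed from control by no more than 0.21 in any comparison. Plxnb1, the receptor of Sema4d, stood at 67.3, 58.9, 66.1, 52.4 and 46.7 CPM in controls and 71.6, 61.5 and 93.2 CPM on the static array (0.37 ± 0.17, adjusted p = 0.351). Plxnb3, a receptor of Sema5a, held 16, 0, 2, 0 and 5 counts in controls (4.60, 0, 0.769, 0 and 1.45 CPM) and 4.30, 4.54 and 9.24 CPM on the static array, a log2 difference of 2.03 ± 0.96 with an interval of 0.05 to 4.01 (adjusted p = 0.381).

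Both neuropilins were even across the biochemical arm. Nrp2 held 215 to 248 CPM in controls, 209 to 225 in high and 199 to 243 in low intensity, with log2 intervals of -0.32 to 0.09 and -0.28 to 0.10 against control. Nrp1 held 47.3 to 73.5 CPM in controls, 52.2 to 75.0 in high and 33.7 to 76.5 in low intensity, with intervals of -0.36 to 0.38 and -0.49 to 0.22. All 4 intervals lay within 0.5 of 0.

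Static array against control called none of the 30 members with edgeR, where 0.713% of all genes were called, and DESeq2 and limma voom called none either. Of the members, 9 had an unadjusted p under 0.05 (6 higher, 3 lower), against 12.6% of all genes (6.1% higher, 6.46% lower). Higher were Sema4b, Sema6a, Plxnb1, Sema3d, Plxnb3 and Sema5a, and lower were Sema3e, Plxna1 and Sema3f. Static libraries lay wholly above controls for Sema6a, Sema4b and Sema3d (4.52% of all genes) and wholly below for Sema3c, Sema3f and Sema3e (3.62% of all genes). Among 7 astrocyte and oligodendrocyte genes (Gfap, Aqp4, Aldh1l1, Slc1a3, Sox10, Pdgfra, Mbp), all were above control on the static array, 6 of them at an unadjusted p under 0.05 and none called, with a median log2 difference of 0.92. Their summed level was 1855 to 2535 CPM in controls and 3000 to 3750 CPM on the static array, and none was at 0 in either group. Motor neuron markers summed to 105 to 162 CPM in controls and 73.7 to 89.1 CPM on the static array. Of the 6 tested, 5 were lower in log2 difference (median -0.59), 3 at an unadjusted p under 0.05, and Slc5a7, the choline transporter, was called (-1.88, adjusted p = 0.00392). The part of these cells in the members' differences was not tested.

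No other gene of the pathway was called. Of 43 co-receptors, alternative neuropilin ligands, collapsin response mediators, MICAL enzymes, GTPase regulators and kinases listed, 37 were tested, and none was called in any of the 6 comparisons with edgeR. At an unadjusted p under 0.05 there were 2 higher and 4 lower in high intensity, 5 higher and 3 lower in low intensity, 1 of each on the static array, 0 higher and 2 lower in high against low intensity, 0 higher and 1 lower for the difference of effects, and 0 of 37 between actuated and static array. The shares over all genes were those given for the members, 15.9%, 15.2%, 12.6%, 7.68%, 6.69% and 0.38% in that order. The median differences of the list lay between -0.04 and 0.08. Smallest in p was Itgb1, the integrin beta 1 chain that serves Sema7a, at 0.67 ± 0.18 in high (adjusted p = 0.0718) and 0.68 ± 0.17 in low intensity (adjusted p = 0.0569). Mical1, an oxidoreductase that breaks down actin filaments downstream of plexins, stood 1.05 ± 0.26 above control in low intensity (adjusted p = 0.0580) and -0.65 ± 0.27 in high against low intensity. Limk1, a kinase of cofilin, differed by -0.42 ± 0.13 in high intensity (adjusted p = 0.116) and Fyn, a kinase recruited by plexins, by -0.37 ± 0.11 in high against low intensity (adjusted p = 0.395). On the static array, Farp2, a Rac activator bound by Plxna1, differed from control by -0.70 ± 0.27 and Fyn by 0.27 ± 0.12. Between actuated and static array the smallest p values belonged to Vegfa, another ligand of Nrp1 (0.48 ± 0.30), and Cdk5 (-0.28 ± 0.23). For the effect of actuation minus that of high intensity they belonged to Itgb1 (-0.73 ± 0.26) and Limk1 (0.39 ± 0.20).

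Upstream sequences from RefSeq (GRCm38.p6) are shown for Sema3d, Sema4b and Plxnb2, which had small p values in the biochemical arm and an entry in the RefSeq promoter table, to show how far their base composition differs. Each run is the 250 bases before a RefSeq start, 5′ to 3′ on the gene's strand, with capitals at matches to the GC box (GGGCGG, either strand, overlapping matches allowed). The Sema3d window is chr5:12382916-12383165 (plus strand), that of Sema4b chr7:80186620-80186869 (plus strand) and that of Plxnb2 chr15:89180789-89181038 (minus strand).
Sema3d: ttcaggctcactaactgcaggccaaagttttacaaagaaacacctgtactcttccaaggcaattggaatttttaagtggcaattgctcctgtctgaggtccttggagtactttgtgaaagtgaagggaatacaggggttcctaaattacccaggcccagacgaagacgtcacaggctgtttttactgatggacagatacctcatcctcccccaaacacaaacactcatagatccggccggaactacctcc
Sema4b: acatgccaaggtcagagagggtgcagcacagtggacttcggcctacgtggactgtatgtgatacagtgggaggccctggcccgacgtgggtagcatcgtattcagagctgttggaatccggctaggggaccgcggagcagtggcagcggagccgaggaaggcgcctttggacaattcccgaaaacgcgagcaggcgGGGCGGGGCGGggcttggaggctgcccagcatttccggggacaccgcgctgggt
Plxnb2: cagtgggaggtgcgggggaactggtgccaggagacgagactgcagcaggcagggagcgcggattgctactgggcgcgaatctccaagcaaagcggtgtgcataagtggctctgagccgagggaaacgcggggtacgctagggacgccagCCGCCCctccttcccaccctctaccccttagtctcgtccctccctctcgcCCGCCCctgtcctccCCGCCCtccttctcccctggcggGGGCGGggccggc
The Sema3d window was 46.8% G and C with 4 CG pairs and held no match, and the bases after its start were in no GENCODE transcript of the gene. The windows of Sema4b (64.4%, 20 CG pairs, 2 matches) and Plxnb2 (69.2%, 20 CG pairs, 4 matches) each held GC boxes, and each gene has a second RefSeq start that is not printed. Of all 32851 windows of this length, 32.7% held a GC box, against 27 of the 37 windows of the 26 members with an entry. The AP-1 motif (TGANTCA, either strand) stood in 3 of the 37 windows and in 6.75% of all windows. The TEAD motif (GGAATG, either strand) stood in 3 of the 37 and in 12.6% of all. The TATA motif (TATAAA, either strand) stood in 0 of the 37 and in 12.4% of all. A match is a description of letters only.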

How the data were processed

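RNA was measured by sequencing of total RNA with a low-input kit that removes rRNA fragments, in 26 libraries, per the labels' protocols. Input was 4 ng RNA, or the full volume for 8 unnamed samples, and reads were paired, 50 bases long, with no molecular identifiers stated. The authors deposited estimated counts per gene, written as whole numbers and not scaled for depth. The authors also deposited TPM values per gene, scaled by transcript length and to the same sum in each library. Per the submitters' processing notes, STAR, Salmon, BWA 0.7.12-r1039 and bedtools 2.25.0 were used with builds mm10, hg19 and GRCm39, without a role for each, so the annotation behind the counts is not given in the sources used here. Whether counting used the strand is not given either, and exons of 7 of the 31 members (Nrp1, Plxna1, Plxna4, Plxnb1, Plxnc1, Sema4a, Sema4c) overlap another gene in GENCODE.

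Genes were tested with edgeR 4.0.16 (R 4.3.3, filterByExpr, TMM, quasi-likelihood F-test) in 1 model over the 21 libraries with over 1000000 protein-coding counts. This left 14730 genes and 30 members. Every adjusted p is the Benjamini-Hochberg value of that test over all genes fitted, unless another tool is named (DESeq2 1.42.0, limma 3.58.1), and ± after a log2 difference is its SE. A gene is called at an adjusted p under 0.05. The 5 comparisons of groups and 1 difference of effects were set from the labels. The minimum depth, the members and all lists were chosen with earlier results of these data known. Named with values were members with any unadjusted p under 0.05, the 6 semaphorins and 4 plexins of highest mean TPM and both neuropilins (22 genes), and of the pathway list the 2 of smallest p per comparison. Marker lists for skeletal muscle, endothelium, macrophages and pluripotent cells summed to at most 184, 22.5, 29.3 and 5.05 CPM in any library compared. One gene of the astrocyte and oligodendrocyte list is not reported here, so 7 are given, a subset taken after the data were seen. The procedure was tested on simulated data. No 2 libraries of a group agreed within sampling noise (chi-square per degree of freedom at least 4.73). Alternatives were other scalings, count filters, tools, depths, TPM values and leaving out libraries.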

Additional observations from a re-analysis of the deposited data

Results flagged for a closer look

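Among the 88 sets of 4 or 5 libraries of 1 group tested for a value far from the rest, 5 were found, where chance gives about 1 in 20. In actuated replicate 3, Plxna1 stood at 214.77 CPM (the others at 261 to 268) and Sema4b at 23.397 CPM (28.5 to 29.1), in both cases the lowest of its group. Low intensity replicate 1 held the highest Plxnb3, at 8.8529 CPM against 0 to 1.90 in the others. Sema3e was highest in control replicate 2, at 79.552 CPM (36.5 to 42.6 in the others), and lowest in high intensity replicate 6, at 42.701 CPM (48.4 to 49.5).

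The shallow libraries left out of the comparisons held 11 values of the 22 named members whose 95% Poisson interval lay above every control compared. They are given here per 1000000 protein-coding counts. That interval covers counting error only, not the spread between libraries. Values below the controls were not looked for, and the share over all genes was not computed. Control replicate 4 held 77.146 of Sema3b, 102.86 of Sema4b, 135.92 of Plxnd1 and 143.27 of Sema4g, against at most 3.57, 30.3, 53.5 and 99.0 in the other controls. High intensity replicate 4, with counts in 9 members, held 564.25 of Nrp2, 520.84 of Plxna2, 298.4 of Plxnb1 and 92.232 of Sema4c. High intensity replicate 5 held 301.74 of Plxnb2. Static replicate 3 held 15.295 of Sema3b (7 counts) and 28.405 of Sema3d (13 counts). Low intensity replicate 6 held 1536 counts in all and none on a member.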

How the results depend on the processing

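Of 884 recomputed values of 26 member differences (those with an unadjusted p under 0.05, and Sema3b and Sema3d in further comparisons), 827 kept their direction and side of the threshold, 19 fell short of it, 33 newly passed it and 5 reversed. Only Sema3b in high intensity was called at first, so all 19 losses were its own, and other differences mostly stayed uncalled. Its call held in 2 of 9 fits without a library of the groups compared, 5 of 12 without one of another group, and 7 of 13 other alternatives. The reversals were Sema3b with all 26 libraries (-0.21 in high intensity, -0.30 in low intensity and -0.73 on the static array, each against control) and Plxna1 on the static array with log2(TPM + 1) or log2(TPM + 0.1) (0.60 and 0.61).

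For high intensity against control, 1 member was called, and 0 were with all 26 libraries, with all but control replicate 4, with limma voom or with only the groups compared. It was 2 without a count filter, with DESeq2's Wald test or at an adjusted p under 0.1, 6 with either TPM scale, and 0 to 2 when 1 library was left out. Counts thinned to 1551334 per library called Sema3d in place of Sema3b. For low intensity against control, 0 members were called, and 2 with DESeq2 or at an adjusted p under 0.1, 12 and 13 with TPM + 1 and TPM + 0.1, and 0 to 1 when 1 library was left out (Sema3b, without control replicate 6 or high intensity replicate 3). For static array against control, 0 became 3 on both TPM scales, and for the difference of effects 0 became 1 (Sema3d) without a count filter. The TPM calls stand beside all-gene medians 0.50 to 0.75 above control.

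Replicate numbers showed no regular pairing over the series: deviations of 16 same-numbered pairs correlated at -0.22 to 0.18, 2 of them over 0.1. Both of those were actuated against static array, at 0.14 in replicate 1 and 0.18 in replicate 4, beside -0.12 in replicate 2. So few pairs cannot decide whether the array libraries were paired. With the replicate number as a block, 0 members were called in each of the 6 comparisons, against 1 without the block for high intensity against control. The alternative with all libraries but control replicate 4 and the leaving out of libraries of other groups were chosen after seeing the data. The cause of these changes was not tested. Depth limits the low members most, and a count of 0 allows up to 0.228 to 1.93 CPM in the libraries compared.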
